A study of Drosophila melanogaster with 24 samples.

Results

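Genes for nerve signalling were followed in neuroblasts, the dividing stem cells of the Drosophila melanogaster brain, which do not themselves form synapses. The genes were taken by name, with earlier results of these data known, from a list of 38 symbols of neuronal excitability and synapse genes. Of these, 37 stood in the count table of 15339 genes, and Nlg2 was not analysed here. RNA-seq libraries came from 2 lineages with 3 libraries in each of 8 groups. Neuroblasts of the antennal lobe (AL) lineage, which makes neurons of the primary olfactory centre, were taken from larvae at 24, 36, 50 and 84 h after hatching. Neuroblasts of the mushroom body (MB) lineage, which makes the neurons of a centre for olfactory learning, were taken from larvae at 24, 50 and 84 h and from pupae at 36 h. In all groups the cells carried green fluorescent protein, and a robotic sorter picked them from about 30 digested brains. Each library pooled 89 to 121 cells. The labels name no driver line for the fluorescent protein and do not say whether the libraries of a group came from separate dissections, so p-values measure only the spread between these libraries.

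A neuron fires through voltage-gated sodium, calcium and potassium channels in its membrane. Calcium that enters at an active zone makes synaptic vesicles fuse with the membrane through SNARE proteins, and the transmitter released binds receptors on the next cell. A neuroblast divides to renew itself and to make a ganglion mother cell, whose daughters become neurons or glia and only then build synapses. Some of the proteins involved also serve membrane traffic or cell polarity in dividing cells.

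Counts over genes numbered 6.06 to 9.27 M per library in AL and 3.15 to 5.83 M in MB (M, mega-counts). A count of 0 allowed up to 3 counts, which was 0.337 to 0.888 CPM (counts-per-million) over the libraries. Neuroblast genes were present at high levels: over the 24 libraries wor averaged 718 TPM (transcripts-per-million), dpn 616, mira 249, ase 152 and insc 74.3 TPM. The 10 neuron markers spread widely: calmodulin (Cam) averaged 2048 TPM, the RNA-binding protein genes elav and fne 77.0 and 34.5 TPM, and nrv3, the lowest, 3.31 TPM. Among 11 glia markers nrv2 and Eaat1 averaged 199 and 113 TPM, while the glial transcription factor genes repo and gcm averaged 1.16 and 0.917 TPM. The share of the neuronal RNA that came from sorted neuroblasts or from other cells was not tested, and in pooled cells fewer cells of a type and less RNA per cell cannot be told apart.

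Most synapse and channel genes were expressed at low levels, and a few were abundant (the plot of TPM by gene and library). The median over the 37 genes was 2.18 TPM, against 14.7 TPM for the 10324 genes that passed the filter on low counts. Only 5 of the 37 averaged above 20 TPM, 8 lay between 5 and 20 TPM and 24 were below 5 TPM, of which 8 were under 1 TPM. A count was present in all 24 libraries for 22 genes, while 15 had 0 counts in at least 1 library. The filter kept 35 of the 37. It left out Nlg1, which encodes the adhesion protein Neuroligin 1 and had 0 counts in 20 libraries, and Vmat, the vesicular monoamine transporter, at a mean of 0.192 TPM.

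**Figure D1:**
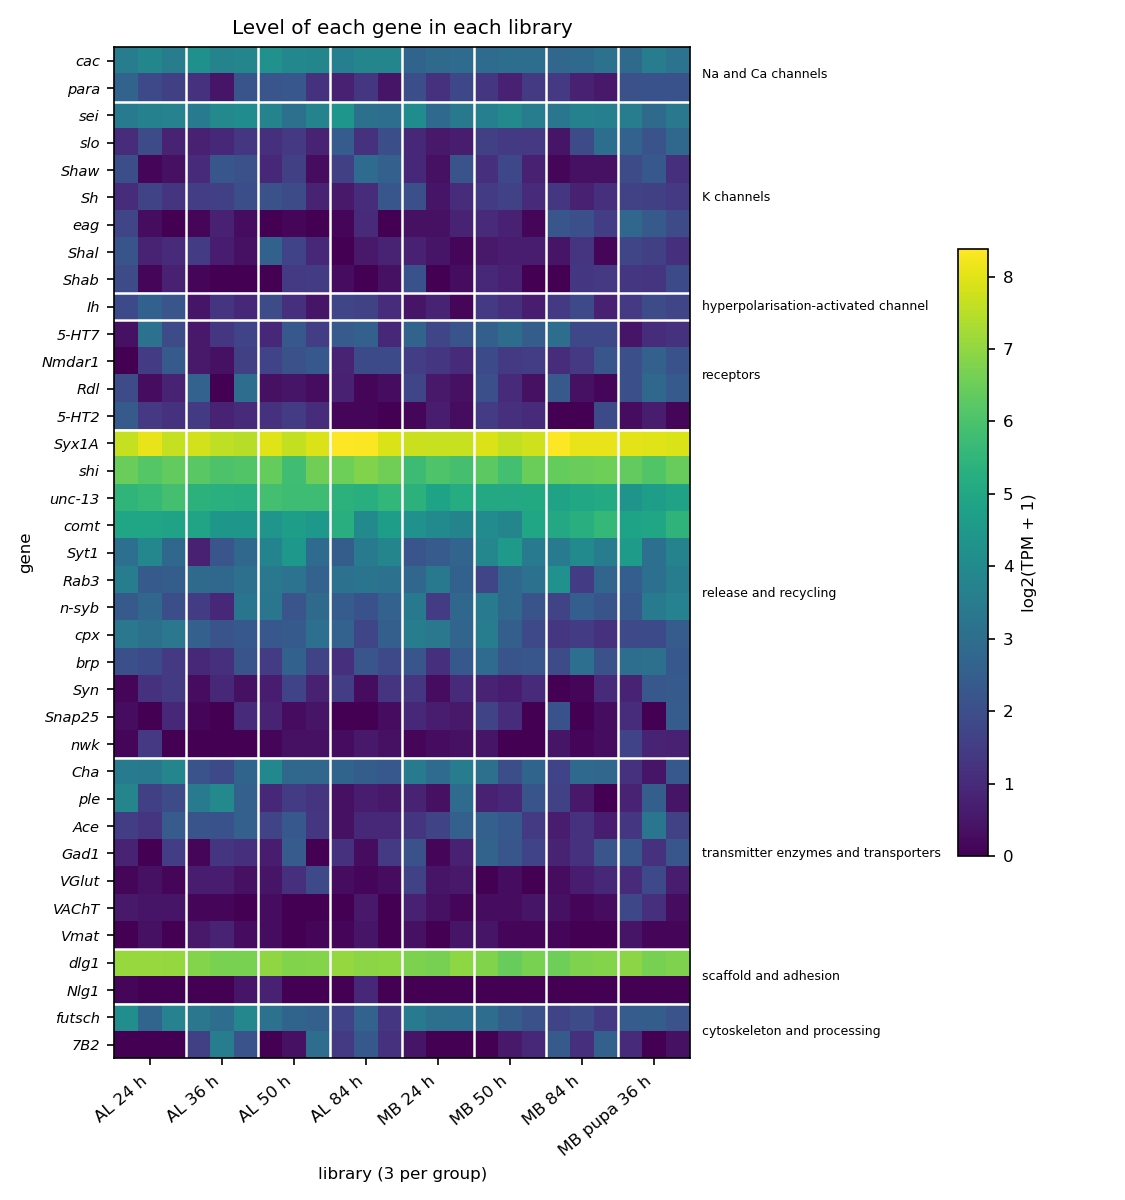
Level of each of the 37 genes (rows, grouped by role) in each of the 24 libraries (columns, 3 per group), as log2(TPM + 1) from the deposited TPM values. Syx1A, dlg1 and shi are the brightest rows in every library, unc-13 and comt follow in most, and the transmitter enzymes and transporters are mostly dark.

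The 5 abundant genes act in membrane fusion, membrane fission or scaffolding. Syx1A, the plasma membrane SNARE syntaxin, averaged 239 TPM over all libraries (range 177 to 332 TPM). Its deposited interval overlaps that of 4EHP on the same strand, whose counts were 0.335 times those of Syx1A. The scaffold gene dlg1, which also acts in cell polarity, averaged 112 TPM, and shi, the fly dynamin that pinches off vesicles in many cell types, averaged 77.9 TPM. The vesicle priming factor unc-13 averaged 38.3 TPM and comt, the NSF ATPase that takes spent SNARE complexes apart, 25.8 TPM. These 5 were also the only ones of the 37 above the median of the genes that passed the filter. Their replicates were close: the median within-group coefficient of variation (CV) of CPM was 7.39% for dlg1, 9.69% for unc-13, 12.4% for Syx1A, 12.5% for shi and 16.9% for comt, with cac between the last 2 at 15.5%.

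Among the listed genes, partners of these abundant genes in the same steps were far lower. The neuronal vesicle SNARE n-syb averaged 5.39 TPM and Snap25, the other listed membrane SNARE, 0.758 TPM. Relatives of both, read from a further list described below, were abundant. Syb, a relative of n-syb, averaged 128 TPM and Snap24, a relative of Snap25, 64.2 TPM. Low levels of n-syb and Snap25 thus do not mean that such SNAREs were scarce. The highest relative of Syt1 in that list, Syt14, averaged only 7.60 TPM. The vesicle calcium sensor Syt1 averaged 10.1 TPM, the vesicle GTPase Rab3 7.14 TPM, the fusion clamp cpx (complexin) 5.13 TPM and brp (Bruchpilot, the active zone scaffold) 3.51 TPM. The vesicle protein gene Syn and the endocytosis gene nwk averaged 1.10 and 0.367 TPM. Their replicates scattered more, with a median within-group CV of 48.7% for Syt1 and 130% for Snap25.

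The channel and receptor genes lay between 0.900 and 11.2 TPM. Among the channels, sei, an erg-type potassium channel, averaged 11.2 TPM and cac, the calcium channel subunit of the active zone, 10.2 TPM. The sodium channel para averaged 2.07 TPM, the calcium-activated potassium channel slo 2.18 TPM, and the potassium channels Shaw, Sh, eag, Shal and Shab 1.90, 1.77, 1.23, 1.16 and 0.900 TPM. The hyperpolarisation-activated channel Ih averaged 1.696 TPM. Among the receptors, the serotonin receptors 5-HT7 and 5-HT2 averaged 3.10 and 0.979 TPM, the NMDA receptor subunit Nmdar1 2.20 TPM and the GABA-gated chloride channel Rdl 1.80 TPM. Within groups Rdl varied widely, from 0.175 to 27.9 CPM in AL at 36 h.

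Genes of transmitter synthesis, transport and breakdown had a median of 1.80 TPM, near that of the potassium channels (1.77 TPM) and receptors (2.00 TPM). Cha, choline acetyltransferase, averaged 6.12 TPM and VAChT, the vesicular acetylcholine transporter, 0.358 TPM. The intervals of Cha and VAChT overlap on the same strand, and 3 further genes overlap Cha on the opposite strand with 0.221 to 0.463 times its counts, so the source of these counts is uncertain. The dopamine enzyme ple (tyrosine hydroxylase) averaged 3.08 TPM, the acetylcholine-degrading enzyme Ace 2.64 TPM, the GABA enzyme Gad1 1.80 TPM and the glutamate transporter VGlut 0.658 TPM. Outside these roles, futsch, a microtubule-associated protein of axons and nerve terminals, averaged 6.22 TPM and 7B2, a helper of prohormone processing, 1.83 TPM.

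The first comparison asked how AL neuroblasts changed with larval age. At 84 h against 24 h, 6 of the 35 tested genes changed and all 6 fell: futsch, 5-HT2, ple, para, cpx and Ace. By role, they were 1 of 2 sodium and calcium channels, 1 of 4 receptors, 1 of 12 release and recycling genes, 2 of 6 tested transmitter enzymes and transporters and 1 of 2 genes of the last group. Changes were tested with edgeR's quasi-likelihood test and Benjamini-Hochberg adjustment over 10324 genes, and a gene counted as changed at an adjusted p under 0.05. The 6 genes were 17.1% of those tested, against 12.4% of all genes tested. The median log2 change over the 35 genes was -0.22, against -0.02 over all genes.

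For futsch, the AL libraries held 18.2, 44.0 and 12.2 CPM at 84 h and 131, 51.2 and 109 CPM at 24 h. All 84 h libraries lay below all 24 h libraries, and the log2 fold change was -1.963 ± 0.38 (SE, n = 3 each, edgeR adjusted p = 0.000628). Along the 4 ages the futsch means were 97.0, 94.9, 54.9 and 24.8 CPM at 24, 36, 50 and 84 h (edgeR adjusted p = 0.00143). For cpx, the AL libraries held 23.0, 11.2 and 21.9 CPM at 84 h and 39.6, 38.4 and 44.3 CPM at 24 h, again without overlap. The log2 fold change of cpx was -1.12 ± 0.37 (SE, edgeR adjusted p = 0.0379).

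The sodium channel para held 3.03, 7.14 and 1.66 CPM in AL at 84 h and 24.6, 13.8 and 10.3 CPM at 24 h. Its groups did not overlap, although 1 library at 36 h was as low as those at 84 h (2.28 CPM), and the log2 fold change was -2.03 ± 0.62 (SE, edgeR adjusted p = 0.0222). Ace held 1.12, 3.20 and 2.87 CPM at 84 h and 6.16, 5.38 and 15.6 CPM at 24 h, a log2 fold change of -1.91 ± 0.64 (SE, edgeR adjusted p = 0.0424). Its highest AL mean was at 36 h, at 15.2 ± 3.28 CPM (SD, n = 3), and every 84 h library was below every library of the other AL ages. The dopamine enzyme ple held 0.337, 0.739 and 0.604 CPM at 84 h and 15.9, 2.77 and 3.78 CPM at 24 h, with a log2 fold change of -3.70 ± 1.12 (SE, edgeR adjusted p = 0.0220). Like Ace, ple had its highest AL mean at 36 h (14.0 ± 7.26 CPM, SD, n = 3).

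The serotonin receptor 5-HT2 nearly dropped out of the AL libraries by 84 h. It held 0.112, 0.123 and 0 CPM at 84 h, which was 2 counts in all, and 8.21, 3.53 and 2.75 CPM at 24 h, which was 91 counts. The ratio of 84 h over 24 h was 0.0174 (95% exact counting interval 0.00207 to 0.0645, for counting error only). The fitted log2 fold change of -5.55 ± 1.49 (SE, edgeR adjusted p = 0.00837) depends on so few counts.

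**Figure D2:**
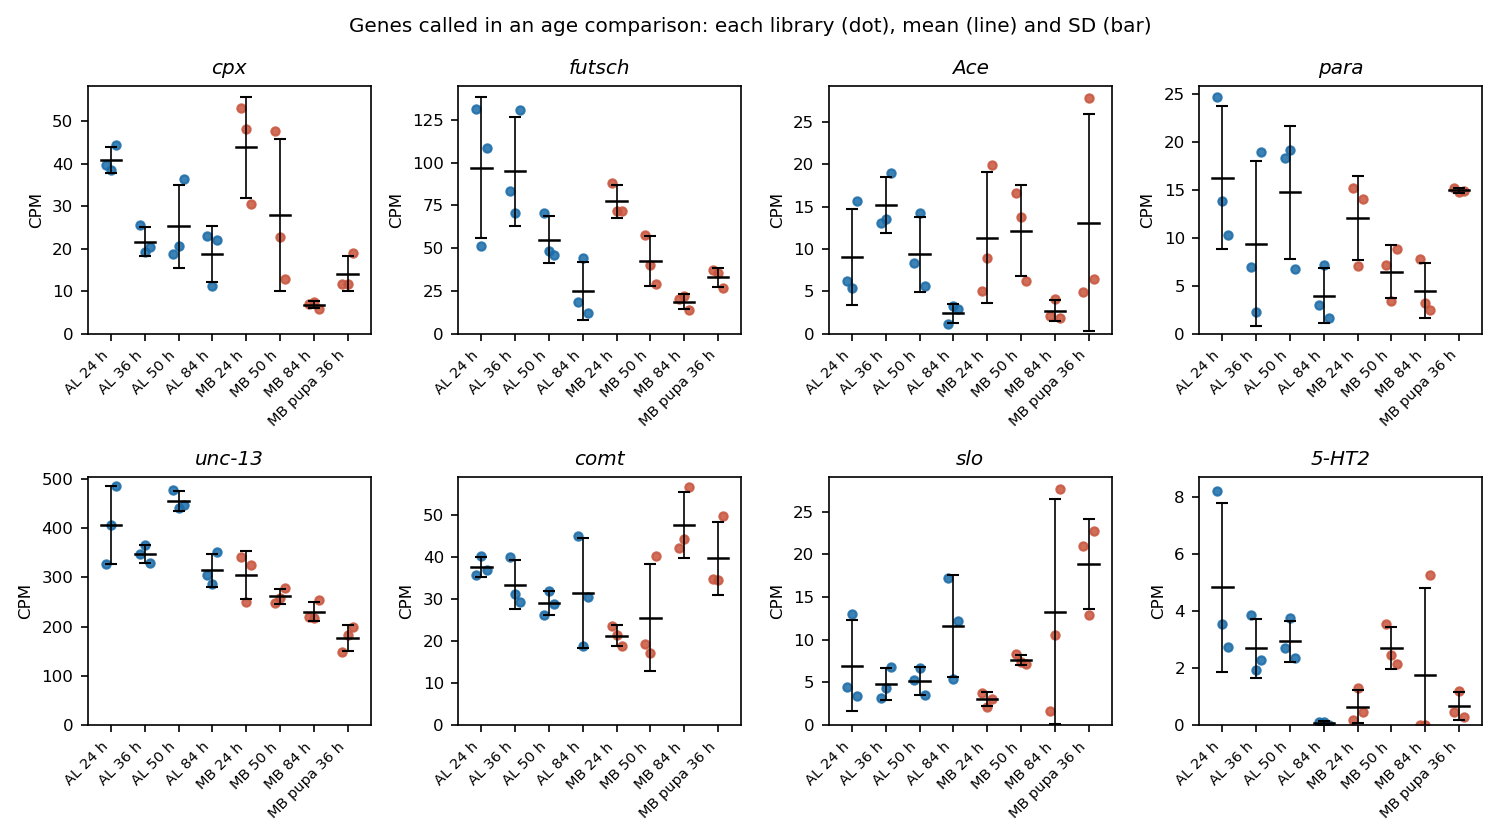
CPM of 8 genes that changed with age in at least 1 comparison, in each library (dots), with the group mean (line) and SD (bar), AL in blue and MB in red. futsch and cpx are lower at 84 h than at 24 h in every library of both lineages, and the single high library of slo in MB at 84 h (27.6 CPM) and of Ace in the pupa (27.9 CPM) can be seen.

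Across all 4 AL ages, 5 of the 35 genes changed, or 14.3%, against 15.3% of all genes tested. They were futsch, ple (edgeR adjusted p = 0.00838), unc-13 (0.0195), Ace (0.0224) and 5-HT2 (0.0451). The mean of unc-13 was 406 ± 79.8 CPM at 24 h, 348 ± 19.1 at 36 h, 456 ± 19.97 at 50 h and 315 ± 34.02 CPM at 84 h (SD, n = 3 each), so that it did not move in 1 direction. The call of 5-HT2 over the 4 ages was lost without 10 of the 12 libraries (adjusted p up to 0.165 in edgeR). That of unc-13 was lost with replicate 1 of AL 50 h, or replicate 1 or 2 of AL 84 h, left out (adjusted p up to 0.0793 in edgeR), and that of Ace with replicate 3 of AL 36 h, or replicate 1 or 3 of AL 84 h, left out (up to 0.138).

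By overlap alone, 10 of the 35 genes were lower in every AL library at 84 h than in every library at 24 h, which 13% of all genes tested were, and 2 were higher in every library, which 12.8% of all genes were. Besides the 6 that changed, the lower ones were Cha, Shal, Ih and dlg1. Cha held 8.53, 7.27 and 6.20 CPM at 84 h and 14.999, 16.4 and 22.5 CPM at 24 h. Ih held 10.6, 9.85 and 4.84 CPM at 84 h and 12.2, 25.8 and 17.7 CPM at 24 h. Neither passed the test. The 2 higher ones were shi, at 206, 256 and 217 CPM at 84 h against 195, 179 and 204 CPM at 24 h, and 7B2, which had 26 counts in all at 84 h and 0 counts at 24 h, at least 2.23-fold higher with a floor of 3 counts per library, a change that did not pass the test.

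Markers of other cells were measured in the same libraries. The summed CPM of 11 glia markers ranged from 399 to 446 at 84 h and from 528 to 704 at 24 h. Of them 2 fell, nrv2 and Eaat1 (18.2%, against 12.4% of all genes tested). The sum of the haemocyte markers overlapped at 4.49 to 25.7 CPM at 84 h and 17.999 to 82.1 CPM at 24 h. All 5 tested haemocyte markers had a log2 change below 0 (median -2.79), and 2 of them fell by the test (40%). The sum of 9 neuron markers other than calmodulin overlapped too, at 611 to 654 CPM at 84 h and 512 to 706 CPM at 24 h. Of the 10 neuron markers, nrv3 fell by 4.73 and Fas2 rose by 1.78 on the log2 scale (20%, against 12.4% of all genes tested). Of 13 neuroblast markers 2 rose and 3 fell (38.5%), with a median log2 change of -0.04. The part of these cell types in the fall was not tested. The calls of futsch and 5-HT2 held whichever of the 6 libraries was left out, but that of futsch was lost with only the groups compared in the fit, at 84 h against 24 h (-1.94, edgeR adjusted p = 0.0574) and over the 4 ages (0.0664). Without AL 84 h replicate 1, the calls of para (-1.85), ple (-3.41), Ace (-1.55) and cpx (-1.28) were lost. The call of cpx was lost without any single library (-0.86 without AL 84 h replicate 2). Those of para (-1.59) and ple (-2.49) were also lost without AL 24 h replicate 1, and that of Ace (-1.27) without AL 24 h replicate 3. Without AL 84 h replicate 3 the calls of para (-1.66), ple (-3.74) and Ace (-2.04) were lost, and without AL 84 h replicate 2 those of ple (-3.96) and Ace (-2.19).

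MB neuroblasts were compared over the same interval. At 84 h against 24 h, 6 of the 35 genes changed: cpx, futsch, Ace and unc-13 fell, while comt and slo rose. They were 17.1% of the genes tested, against 14.4% of all genes tested. By role, they were 1 of 7 potassium channels, 3 of 12 release and recycling genes, 1 of 6 tested transmitter enzymes and transporters and 1 of 2 of the last group. The median log2 change over the 35 genes was -0.13, against 0.05 over all genes. futsch, cpx and Ace fell in both lineages, which is 50% of the 6 that fell in AL and 75% of the 4 that fell in MB. Of all genes tested, 330 (3.2%) fell in both, which is 47.7% of the 692 that fell in AL and 37.0% of the 891 that fell in MB. With so few listed genes these shares are a description only.

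For cpx, the MB libraries held 6.98, 7.54 and 5.83 CPM at 84 h and 53.0, 48.2 and 30.4 CPM at 24 h. This was the change with the smallest adjusted p among these genes at 84 h against 24 h in either lineage, with a log2 fold change of -2.69 ± 0.40 (SE, n = 3 each, edgeR adjusted p = 1.93e-06). The 50 h libraries spread over the interval between, at 47.6, 22.8 and 12.9 CPM. For futsch, the MB libraries held 20.1, 21.9 and 13.5 CPM at 84 h and 88.3, 71.7 and 71.7 CPM at 24 h, with no overlap. Its log2 fold change of -2.06 ± 0.39 (SE, edgeR adjusted p = 0.000369) differed from that in AL by 0.10 ± 0.53 (SE, AL minus MB, 95% interval -0.93 to 1.13).

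Ace held 2.05, 4.13 and 1.88 CPM in MB at 84 h and 5.05, 8.99 and 19.95 CPM at 24 h, a log2 fold change of -2.06 ± 0.66 (SE, edgeR adjusted p = 0.0262). The groups did not overlap, and the 24 h libraries spread widely. For unc-13 the MB libraries held 220, 219 and 254 CPM at 84 h and 341, 249 and 325 CPM at 24 h. Its groups overlapped, and the log2 fold change was small, at -0.40 ± 0.14 (SE, edgeR adjusted p = 0.0468).

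comt was higher in every MB library at 84 h (42.1, 44.1 and 56.6 CPM) than in every library at 24 h (23.6, 21.4 and 18.8 CPM), with a log2 fold change of 1.16 ± 0.31 (SE, edgeR adjusted p = 0.00729). The potassium channel slo held 1.64, 10.6 and 27.6 CPM at 84 h and 3.79, 2.14 and 3.09 CPM at 24 h. The lowest slo library at 84 h was below all those at 24 h, so the groups overlapped, and the fitted log2 fold change was 2.14 ± 0.66 (SE, edgeR adjusted p = 0.0224). Without MB 84 h replicate 3 it was 1.06 and was not called.

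Across the 4 MB ages 7 of 35 genes changed, or 20%, against 17.7% of all genes tested. They were cpx (edgeR adjusted p = 3.86e-06), unc-13 (0.000344), futsch (0.00156), Cha (0.0116), comt (0.0136), slo (0.0167) and Ace (0.0426). unc-13 averaged 305 ± 49.1 CPM at 24 h, 262 ± 15.5 at 50 h, 231 ± 19.8 at 84 h and 177 ± 25.6 CPM in the pupa (SD, n = 3 each). Cha averaged 16.4 ± 4.13 CPM at 24 h, 8.87 ± 3.67 at 50 h, 7.23 ± 3.06 at 84 h and 2.83 ± 2.67 CPM in the pupa. The call of Cha was lost without MB 24 h replicate 3 or pupal replicate 1 or 2 (edgeR adjusted p up to 0.0737), that of slo without MB 24 h replicate 2 or 3 (up to 0.0692), and that of Ace without 5 of the 12 libraries (up to 0.201).

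By overlap alone, 6 of the 35 genes were lower in every MB library at 84 h than at 24 h, which 15.8% of all genes tested were, and 6 were higher, which 16.2% of all genes were. The lower ones were futsch, cpx, Ace, Cha, Shaw and dlg1. Shaw held 0.205, 0.538 and 0.564 CPM at 84 h, near the limit of detection, and 1.98, 0.642 and 8.08 CPM at 24 h. The higher ones were comt, Syt1, Syx1A, shi, eag and 7B2. The potassium channel eag held 16.4, 12.2 and 7.71 CPM at 84 h and 1.26, 1.50 and 3.80 CPM at 24 h, and did not pass the test. Syt1 held 36.7, 50.6 and 36.1 CPM at 84 h and 13.7, 17.98 and 24.0 CPM at 24 h, and did not pass it either.

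In MB, too, the glia marker sum was lower at 84 h (408 to 487 CPM) than at 24 h (601 to 661 CPM), and the sum of the 9 neuron markers was 539 to 774 CPM at 84 h and 822 to 891 CPM at 24 h. The lower glia sum was mostly nrv2, at a mean of 199 CPM at 84 h and 364 CPM at 24 h: of the 11 glia markers nrv2 fell, Mdr65 rose and 7 had a log2 change above 0. Of the 10 neuron markers, elav and fne fell by 0.47 and 1.35 on the log2 scale and jeb rose by 3.13. Called genes were 18.2% of the glia and 30% of the neuron markers, against 14.4% of all genes tested. Of 13 neuroblast markers 2 rose and 6 fell (61.5%), with a median log2 change of -0.46, against 0.05 over all genes. The part of these markers' cells in the changes of cpx, futsch and Ace was not tested. The calls of cpx, futsch and comt held whichever of the 6 libraries was left out. That of unc-13 was lost without any library but MB 24 h replicate 2 (-0.32 without MB 24 h replicate 1). It was also lost under 6 of 7 other settings, DESeq2 among them, with adjusted p up to 0.598 in limma, so this call depends on these settings. The call of Ace was lost without MB 24 h replicate 3 (-1.37) or MB 84 h replicate 1 (-1.90) or 3 (-1.83). The call of slo was lost without MB 24 h replicate 2 (1.958) or 3 (2.15) as well.

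**Figure D3:**
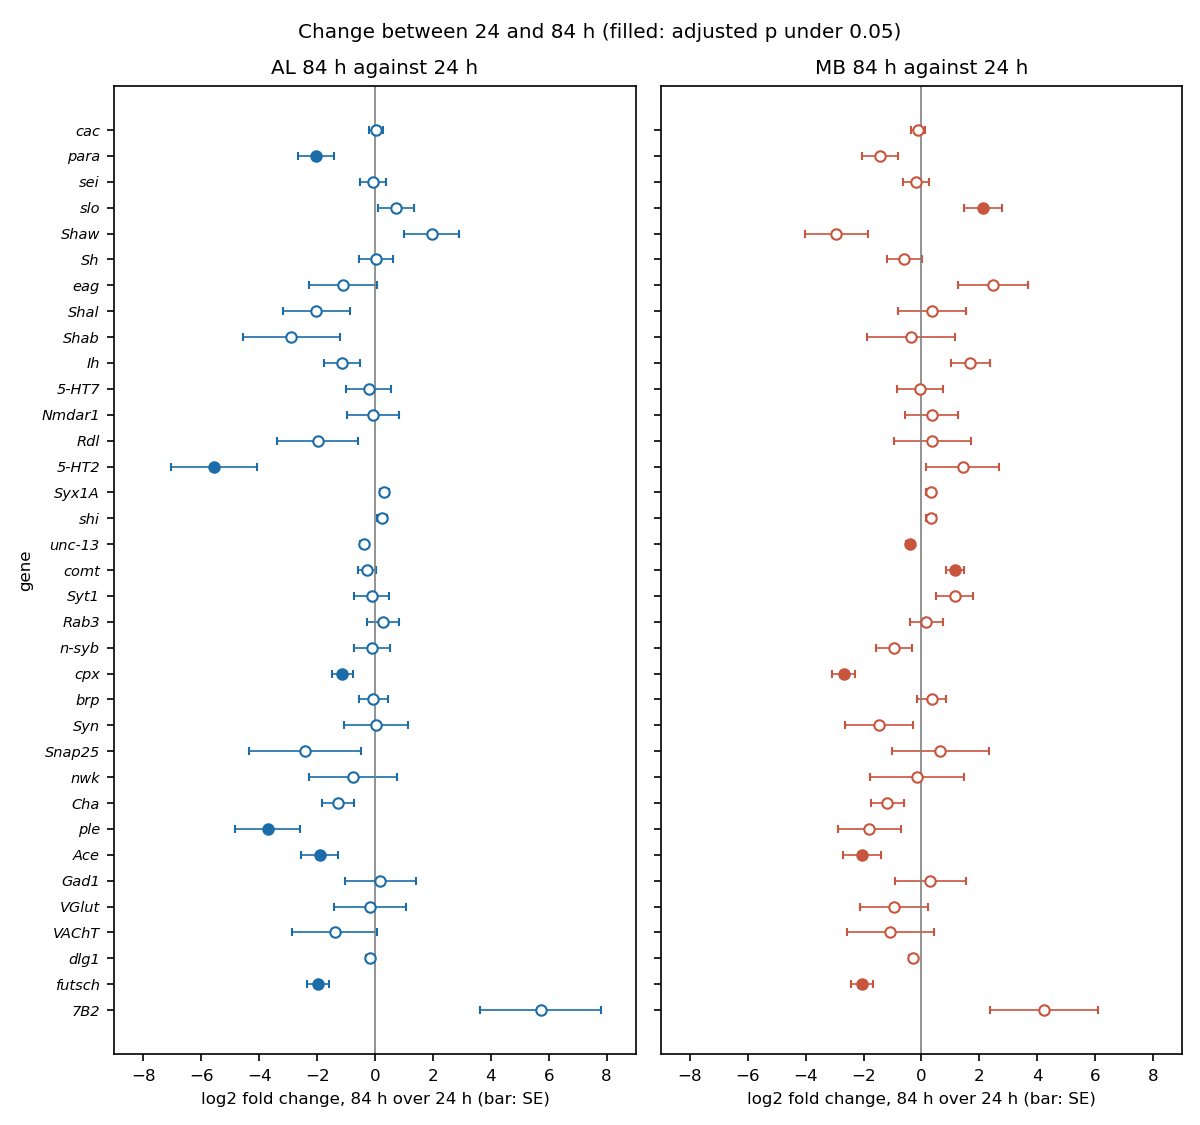
Log2 fold change, 84 h over 24 h, of the 35 tested genes in AL (left) and MB (right), with the SE as a bar and filled points for an adjusted p under 0.05. futsch, cpx and Ace are filled on the negative side in both panels. The AL point of 7B2 was fitted against 3 libraries with 0 counts and that of 5-HT2 rests on 2 counts at 84 h, so neither size is a bound.

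MB neuroblasts go on dividing in the pupa, and the pupal libraries were set against the last larval age. Against MB at 84 h only Ace rose, to 4.91, 27.9 and 6.49 CPM in the pupa, against 2.05, 4.13 and 1.88 CPM at 84 h. The log2 fold change was 2.27 ± 0.66 (SE, n = 3 each, edgeR adjusted p = 0.0474), with 1 pupal library far above the others. It is 1 gene of 35, or 2.86%, against 2.61% of all genes tested. Without pupal replicate 2 the log2 fold change of Ace was 1.09, and the call was lost there and without MB 84 h replicate 1 (2.11) or 3 (2.08).

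Most of the genes leaned upward in the pupa without passing the test. Of the 35, 25 had a log2 fold change above 0, and the median was 0.53, against -0.02 over all genes. The 4 further lists described below did not all lean so. Above 0 were 14 of 29 receptor genes (median -0.22) and 7 of 17 transmitter enzymes and transporters (-0.08). So were 13 of 25 vesicle and release genes (0.03) and 18 of 26 channel genes (0.18). In 7 of the 35 genes every pupal library was above every 84 h library, which 8.42% of all genes tested were, and in 3 of them below, which 9.73% of all genes were. The higher ones were para, futsch, cpx, Ace, Sh, Shaw and nwk. para held 15.2, 14.7 and 14.8 CPM in the pupa and 7.80, 3.23 and 2.44 CPM in MB at 84 h. futsch held 37.0, 35.4 and 26.5 CPM in the pupa and 20.1, 21.9 and 13.5 CPM at 84 h, and cpx 11.7, 11.7 and 18.9 CPM in the pupa against 6.98, 7.54 and 5.83 CPM at 84 h. The lower ones were unc-13, the serotonin receptor 5-HT7 and 7B2. 5-HT7 held 0.702, 1.82 and 2.26 CPM in the pupa and 13.1, 4.13 and 4.33 CPM at 84 h. This comparison and that of 84 h with 24 h share the MB 84 h libraries.

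Summed over the 33 genes other than dlg1, unc-13, Syx1A and shi, the level was 375 to 410 CPM in the pupa and 283 to 284 CPM in MB at 84 h. Over all 37 genes the sum was 1421 to 1592 CPM in the pupa and 1420 to 1536 CPM at 84 h, with overlap. The sum of the 9 neuron markers was 1015 to 1126 CPM in the pupa and 539 to 774 CPM at 84 h. CadN, at a mean of 151 CPM in the pupa and 25.3 CPM at 84 h, did not pass the test. Of the 10 neuron markers tested, calmodulin included, 6 had a log2 change above 0. Of them 3 rose and 0 fell (30%, against 2.61% of all genes tested). The RNA-binding protein gene Rbp9 rose by 2.12 ± 0.47, fne by 0.82 ± 0.20 and elav by 0.50 ± 0.14 (log2, SE, edgeR adjusted p = 0.00407, 0.0151 and 0.0439). The glia marker sum was 468 to 480 CPM in the pupa and 408 to 487 CPM at 84 h. Whether the higher sums came from neuroblasts or from other cells of the sort was not tested.

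**Figure D4:**
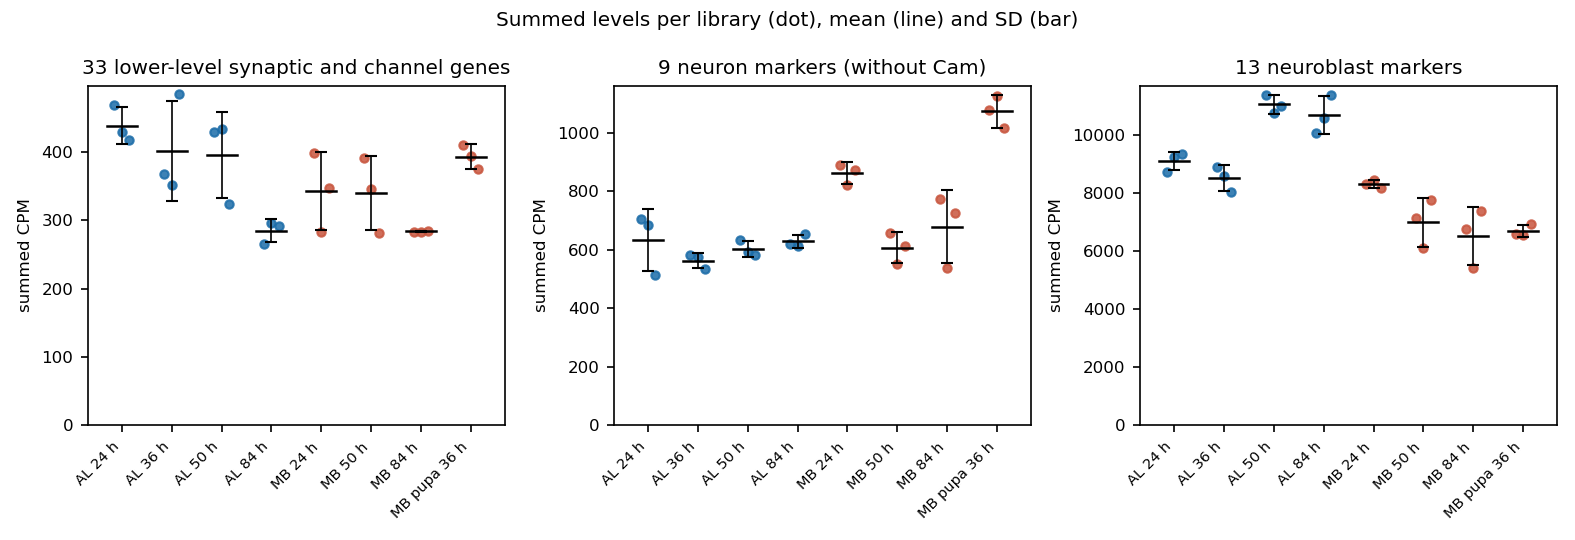
Summed CPM in each library (dots), with the group mean (line) and SD (bar), of the 33 lower synaptic and channel genes, the 9 neuron markers without calmodulin and the 13 neuroblast markers. The first sum lies at 266 to 296 CPM in AL at 84 h and 283 to 284 CPM in MB at 84 h, its lowest group means, and the neuron marker sum is highest in the pupa.

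AL and MB were compared at the ages they share, 24, 50 and 84 h. 4 of the 35 genes differed, or 11.4%, against 21.9% of all genes tested, and all 4 were higher in AL: cac, unc-13, dlg1 and Ih. The median log2 difference over the 35 genes was 0.13, against -0.02 over all genes. The further lists described below did not lean toward AL. The medians were -0.70 over 29 receptor genes (2 higher, 4 lower in AL) and -0.65 over 17 transmitter enzymes and transporters (0 and 2). They were -0.35 over 26 other channel genes (1 and 5) and -0.04 over 25 vesicle and release genes (4 and 1). Called genes were 20.7%, 11.8%, 23.1% and 20% of these lists. Of 13 neuroblast markers, 9 were higher and 0 lower in AL (69.2%, against 21.9% of all genes tested), with a median log2 difference of 0.42. Of 11 glia markers 2 were higher and 4 lower in AL (54.5%), and of 10 neuron markers 1 and 3 (40%). The part of these cell types in the differences of cac, unc-13, dlg1 and Ih was not tested.

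The calcium channel cac was higher in every AL library than in every MB library at each of the 3 ages. At 24 h it held 45.5, 66.7 and 50.8 CPM in AL and 26.3, 33.6 and 35.6 CPM in MB. At 84 h it held 49.3, 59.5 and 58.5 CPM in AL and 27.1, 25.8 and 34.2 CPM in MB. Averaged over the ages the log2 difference was 0.96 ± 0.14 (SE, n = 9 each, edgeR adjusted p = 5.68e-07), and cac did not pass the test for change with age in either lineage. In the deposited tables cac spans chromosome X from 11827738 to 11875209 on the minus strand, as deposited (build dm3 per the submitters' processing notes).

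The priming factor unc-13 was higher in AL than in MB without overlap at 2 of the 3 ages. At 50 h it held 478, 441 and 448 CPM in AL and 248, 258 and 278 CPM in MB. The log2 difference over the 3 ages was 0.55 ± 0.08 (SE, edgeR adjusted p = 7.83e-07). The scaffold dlg1 showed a small difference of 0.25 ± 0.07 (SE, edgeR adjusted p = 0.00778), at 581, 558 and 556 CPM in AL at 84 h against 436, 450 and 495 CPM in MB at 84 h.

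The 24 h libraries of Ih held 12.2, 25.8 and 17.7 CPM in AL and 2.16, 4.07 and 0.475 CPM in MB, without overlap. At 50 h the lineages overlapped, at 13.7, 5.69 and 2.21 CPM in AL and 7.99, 5.88 and 3.11 CPM in MB. They overlapped at 84 h as well. The log2 difference over the 3 ages was 1.196 ± 0.38 (SE, edgeR adjusted p = 0.0181), and without AL 50 h replicate 1 it was 0.91 and was not called. With limma on log2(TPM + 1) it was 0.66 and was not called either.

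**Figure D5:**
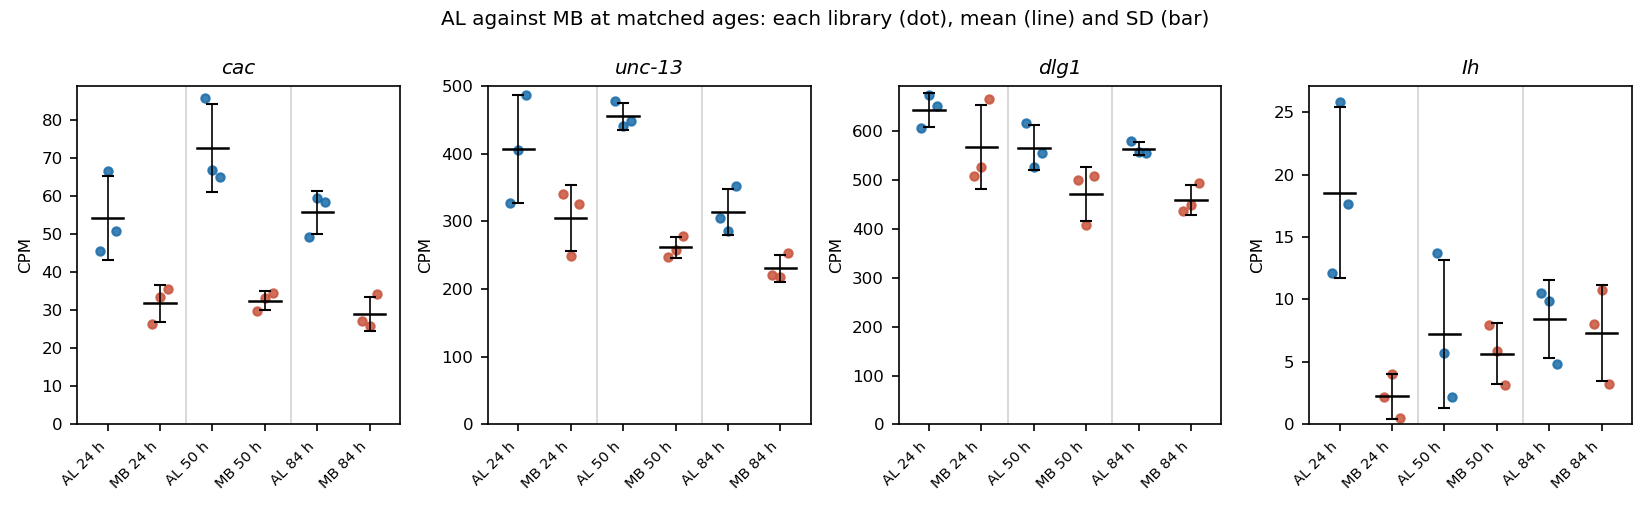
CPM of the 4 genes that differed between lineages, in AL (blue) and MB (red) libraries at 24, 50 and 84 h, with the group mean (line) and SD (bar). AL and MB dots of cac do not overlap at any age, and those of Ih do not overlap at 24 h.

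The change between 24 and 84 h was then compared between the lineages. 3 of the 35 genes differed, or 8.57%, against 4.71% of all genes tested: Shaw, comt and 5-HT2. For Shaw the AL libraries held 3.93, 13.3 and 9.67 CPM at 84 h and 5.84, 0.307 and 0.686 CPM at 24 h, while the MB libraries held 0.205, 0.538 and 0.564 CPM at 84 h and 1.98, 0.642 and 8.08 CPM at 24 h. The difference in log2 change, AL minus MB, was 4.91 ± 1.45 (SE, edgeR adjusted p = 0.0371). For comt it was -1.43 ± 0.44 (SE, edgeR adjusted p = 0.0491), with AL at 44.8, 18.7 and 30.4 CPM at 84 h and 35.7, 40.3 and 36.9 CPM at 24 h beside the increase in MB.

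For 5-HT2 the difference was -6.98 ± 1.94 (SE, edgeR adjusted p = 0.0246), but the MB libraries held 0, 0 and 5.27 CPM at 84 h and 0.180, 1.28 and 0.475 CPM at 24 h. Without the single high library, MB 84 h replicate 3, the difference was -0.56 and was not called. The calls of comt and Shaw were lost without 11 and 8 of the 12 libraries concerned, comt with -1.16 without AL 84 h replicate 2 and Shaw with 3.51 without MB 24 h replicate 3.

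All these values are relative to the total RNA counted. When libraries were instead scaled by the spike-in RNA and the recorded cell numbers, the median of all genes moved by 0.60 (log2) in AL and by -0.23 in MB between 84 and 24 h, and by -0.31 between AL and MB. The cell numbers recorded for AL 84 h libraries repeat those of the 24 h ones (106, 108 and 101), so whether each age was counted is not known, and the AL shift depends on them. On that scale 3 listed genes were higher (Syx1A, shi and 7B2) and 3 lower (futsch, ple and 5-HT2) in AL at 84 h than at 24 h, and none higher and 3 lower (futsch, cpx and Ace) in MB. Of all 10324 genes tested, 1488 were higher and 150 lower in AL, and 210 higher and 729 lower in MB. Less the median of all genes on that scale, the log2 changes of Syx1A and shi in AL were 0.37 and 0.25. Between the lineages cac stayed higher in AL, brp and eag were lower in AL, and dlg1 turned to -0.064. The calls of unc-13 (0.25, edgeR adjusted p = 0.315) and Ih (0.87, edgeR adjusted p = 0.118) were lost. Of all genes, 237 were higher and 1785 lower in AL. In the lineage difference of the change, 2 listed genes were higher (cpx and Shaw) and 5-HT2 lower, beside 993 higher and 86 lower of all genes.

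Other genes of the same pathways were read from 4 further lists. Of 25 tested vesicle and release genes, 1 rose and 3 fell in AL at 84 h against 24 h (16%, against 12.4% of all genes tested), and 1 rose and 4 fell in MB (20%, against 14.4%). RhoGAP100F, the fly Syd-1 gene of the active zone, fell in both, by 1.97 ± 0.25 in AL and by 1.44 ± 0.25 in MB (log2, SE, edgeR adjusted p = 1.08e-07 and 2.95e-05). In AL its level was 43.6 ± 11.1 CPM at 84 h, against 171 ± 11.3 CPM at 24 h (SD, n = 3 each). Syb, a synaptobrevin that is expressed beyond neurons, rose in both, by 1.18 ± 0.23 in AL and 1.10 ± 0.23 in MB (edgeR adjusted p = 0.000169 and 0.000375). Its neuronal relative n-syb held 5.42 to 8.31 CPM in AL at 84 h and 5.15 to 10.3 CPM at 24 h.

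Of 26 other channel genes, 3 rose and 4 fell in AL (26.9%, against 12.4% of all genes tested) and 2 fell in MB (7.69%, against 14.4%). The second sodium channel homologue NaCP60E fell in both lineages, by 0.79 ± 0.17 in AL and by 0.71 ± 0.17 in MB (log2, SE, edgeR adjusted p = 0.000619 and 0.00204). At a mean of 27.9 TPM over the libraries it was more abundant than para, at 2.07 TPM. Hk, the beta subunit of the Shaker channel, fell by 2.76 ± 0.73 in AL (edgeR adjusted p = 0.00757), and its change differed between the lineages by -3.74 ± 1.02 (AL minus MB, edgeR adjusted p = 0.0223). Sh itself held 3.70, 7.64 and 26.1 CPM in AL at 84 h and 7.89, 17.8 and 10.47 CPM at 24 h, with overlap. The channel gene ClC-a rose in AL by 5.27 ± 1.43 (edgeR adjusted p = 0.00909), from 2 counts in all at 24 h.

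Of 29 other receptor genes, 2 rose and 5 fell in AL (24.1%, against 12.4% of all genes tested), and 1 rose and 5 fell in MB (20.7%, against 14.4%). The metabotropic GABA receptor GABA-B-R1 fell in both, to 3.505 ± 3.52 CPM at 84 h against 14.3 ± 3.69 CPM at 24 h in AL, and to 15.8 ± 5.49 CPM at 84 h against 121 ± 14.2 CPM at 24 h in MB (SD, n = 3 each). Its log2 fold changes were -2.06 ± 0.44 in AL and -2.93 ± 0.42 in MB (SE, edgeR adjusted p = 0.000877 and 1.45e-06). The nicotinic receptor subunit nAcRbeta-64B fell in MB, by 5.88 ± 0.86 (edgeR adjusted p = 1.33e-06), and rose in the pupa by 3.20 ± 0.81 (edgeR adjusted p = 0.0164). Its MB means were 42.3 ± 15.7 CPM at 24 h, 6.02 ± 2.92 at 50 h, 0.692 ± 0.383 at 84 h and 6.52 ± 4.04 CPM in the pupa. Among the genes that rose from 24 to 84 h, GluRIIB did so in both lineages, by 4.42 ± 1.40 in AL and 4.11 ± 1.37 in MB (edgeR adjusted p = 0.0285 and 0.0348). HisCl1 rose in AL by 4.94 ± 1.33 (edgeR adjusted p = 0.00853). Each of these 2 genes had only 3 counts in all in AL at 24 h.

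Of 17 other transmitter enzymes and transporters, none rose and 3 fell in AL (17.6%, against 12.4% of all genes tested), and 1 rose and 1 fell in MB (11.8%, against 14.4%). The histamine enzyme Hdc rose in MB by 2.58 ± 0.40 (log2, SE, edgeR adjusted p = 8.4e-05), to 141 ± 24.4 CPM at 84 h against 23.4 ± 7.41 CPM at 24 h (SD, n = 3 each). The carboxypeptidase svr, which trims peptides, fell in AL by 0.66 ± 0.19 and in MB by 0.98 ± 0.19 (edgeR adjusted p = 0.0179 and 0.000364). Between the lineages, the release genes Sap47 and Csp were higher in AL by 0.73 ± 0.09 and 0.40 ± 0.07, and Rbp, the RIM-binding protein gene, was lower in AL by a log2 difference of -1.57 ± 0.23 (edgeR adjusted p = 4.25e-08, 6.2e-06 and 6.3e-07). GABA-B-R1 was lower in AL too, at -2.78 ± 0.25 (edgeR adjusted p = 1.41e-11).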

How the data were processed

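RNA of 24 libraries (8 groups by lineage and age, 3 each) was amplified with the Ovation RNA-Seq System V2 and sequenced, per the labels. The authors deposited raw counts per gene. They also deposited TPM values, whose ratio to the counts followed 1 length for each gene and 1 factor for each library (CV at most 0.146% for 852 genes above 500 counts throughout). The submitters' processing notes name HTSeq 0.6.1p1, STAR 2.4.0i, Bowtie2 2.1.0, cutadapt 1.7.1 and CASAVA, with builds dm3 and mm10. Role of each tool, annotation and strand handling: not given in the sources used here, so overlapping genes may share counts. The count table had 15437 rows: 15339 genes, 92 spike-in RNAs, 5 summary rows (reads in no gene were 6.88% to 11.6%) and 1 unnamed row with at most 0.000206% of counts. All but the gene rows stayed out of library sizes.

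Tests used edgeR 4.0.16 in R 4.3.3: TMM, filterByExpr, a robust quasi-likelihood fit to all 24 libraries with 1 mean per group (common biological coefficient of variation 0.471), and Benjamini-Hochberg adjustment at 0.05 over 10324 genes. CPM use TMM-scaled library sizes. Alternatives were DESeq2 size factors, no filter, DESeq2 1.42.0, only the groups compared, limma 3.58.1 on log2(TPM + 1), spike-in and cell number scaling, the replicate number as a block, and each library left out. The edgeR script was run on simulated data with a smaller spread between libraries than in these data. That run checks the code and does not measure error rates here. Replicates of a group correlated at 0.935 to 0.957 (log2(CPM + 1)), and none were duplicates.

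The genes and lists were chosen with earlier results of these data known. Fold changes are given for listed genes that passed the test. From the other lists come up to 4 genes with the smallest adjusted p per comparison.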

Additional observations from a re-analysis of the deposited data

Results flagged for a closer look

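The change between 24 and 84 h differed between AL and MB, by the interaction test in edgeR, for 3 genes. For the potassium channel Shaw the difference in log2 change, AL minus MB, was 4.91. For the serotonin receptor 5-HT2 it was -6.98, on 2 counts in AL at 84 h and with 1 MB library at 84 h (5.27 CPM) above 2 others at 0. For comt it was -1.43, with adjusted p = 0.0491.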

How the results depend on the processing

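The number of synaptic and channel genes called was recomputed under 7 settings and with each library left out. For the 4 AL ages (5 genes) it was 10 without a filter, 8 with DESeq2, 3 with limma on log2(TPM + 1) and 3 with spike-in and cell number scaling. Of all genes tested, 1584 of 10324 were called in the main fit and 1958 of 14251 without a filter. Under the other settings in turn, 2097, 1531 and 1568 of all genes were called. For AL at 84 h against 24 h (6 listed genes) the number was 2 with limma, with 1240 of all genes called against 1277 in the main fit. For the 4 MB ages (7 listed genes) the number was 11 with only the groups compared, 4 with limma and 12 with spike-in scaling. Of all genes, 1829 were called in the main fit and 2160, 2069 and 3866 under these settings. The rise with spike-in scaling was thus shared by all genes. For MB at 84 h against 24 h (6 listed genes) the number was 3 with spike-in scaling, with 939 of all genes called against 1491 in the main fit. For the pupa against MB at 84 h (1 listed gene) the number was 2 without a filter, 2 with DESeq2 and 0 with DESeq2 size factors, with only the groups compared, with limma, with spike-in scaling and with the replicate block. Of all genes, 269 were called in the main fit. Under these settings in turn, 369 of 14251, 363, 260, 348, 230, 100 and 261 were called. For AL against MB (4 listed genes) the number was 8 without a filter, with 2413 of 14251 genes called against 2260 of 10324 in the main fit. For the difference in change (3 listed genes) the number was 5 without a filter, 0 with only the groups compared and 1 with limma. Of all genes, 486 were called in the main fit and 669 of 14251, 402 and 357 under these settings. With a library left out the listed genes called ranged from 2 to 7, 2 to 6, 5 to 7, 3 to 7, 0 to 1, 3 to 5 and 0 to 3 in the same order. Over all genes the first 4 ranged from 1321 to 1594, 933 to 1226, 1544 to 1789 and 1086 to 1271. The last 3 ranged from 162 to 261, 2048 to 2370 and 348 to 498. The log2 difference of dlg1 between AL and MB turned to -0.064 with spike-in scaling, which shifts the median of all genes by -0.31. The calls of unc-13 (0.25) and Ih (0.87) between AL and MB were lost with that scaling. The causes of the other shifts were not tested.

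Same-numbered libraries of different groups did not deviate together over all genes (correlation -0.0952 to 0.0802, median 0.004, over 84 pairs). These correlations cannot tell whether same-numbered libraries shared a dissection, which the labels do not say. With the replicate block the counts were 5, 6, 7, 6, 0, 5 and 3, and 1525, 1246, 1809, 1496, 261, 2209 and 454 over all genes. Of the listed genes called without the block, 5-HT2 over the 4 AL ages (edgeR adjusted p = 0.0578), Ace in the pupa (2.15) and Shaw in the difference in change (4.89) were lost with it. Depth limits the lowest genes: 6 of the 37 had 3 counts or fewer in 12 or more libraries.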
